A study of Mus musculus with 2 samples.

Results

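Calcium signals inside neurons are read by calmodulin and passed on by calmodulin-dependent protein kinases, and the genes described here encode 8 of those kinases and 1 of their inhibitors: Camk2a, Camk2b, Camk2d, Camk2g, Camk2n1, Camk4, Camkk1, Camkk2 and Camk1d. They were chosen by gene symbol, and all 9 were found, among 55536 genes in the deposited gene tables. Their 90 transcript models were taken from 141767 in the transcript tables. The samples were total RNA libraries from the left cortex of 2 male B6CASTF1/J mice, which are first-generation offspring of C57BL/6J and CAST/EiJ parents. Both mice were 36 days old, and the labels name no treatment. Each library started from 300 ng of RNA, was reduced in ribosomal RNA and contained ERCC spike-in transcripts. The mice formed a single group, here called replicate 1 and replicate 2, and the labels give both the same donor identifier. There was therefore no comparison between conditions, and with 2 mice an exact permutation test could not give a p below 0.5, so values are descriptions with the spread between the mice as SD.

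The 4 CaMKII genes encode subunits that assemble into one large holoenzyme. Calcium-bound calmodulin activates it, and autophosphorylation between neighbouring subunits can keep it active after calcium has fallen. Camk2a and Camk2b encode the alpha and beta subunits that dominate in forebrain neurons, while Camk2d and Camk2g encode delta and gamma subunits used in many tissues. Camk2n1 encodes a small protein that binds active CaMKII and inhibits it. Camkk1 and Camkk2 encode upstream kinases that phosphorylate CaMKI and CaMKIV. Camk1d encodes the delta form of CaMKI, and Camk4 encodes CaMKIV, a largely nuclear kinase known for phosphorylating the transcription factor CREB.

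All 9 genes reached 1 TPM or more in each mouse, here called detected, as did 58.5% of 22015 nuclear protein-coding genes. TPM is a relative transcript abundance, a level per length that allows genes to be compared within a library. The median member had a mean log2(TPM + 1) of 6.81, against 4.08 for the 12889 detected protein-coding genes, or 111 and 15.9 TPM. The libraries held 29915463 and 27988085 expected counts, which are reads assigned to genes with shared reads divided between them. Among the members, these counts ran between 3054 and 75295 in replicate 1 and between 2868 and 73274 in replicate 2. The deposited posterior SD of the gene count was 0 in both mice for 9 of 9 members and for 82.2% of detected protein-coding genes, so the members' gene totals held no reads divided with another gene. The tissue label was checked against markers. All 4 excitatory neuron markers and all 4 inhibitory neuron markers were detected, and 0 of 3 cerebellar markers were. The 4 striatal markers were also detected, with summed TPM of 179 in replicate 1 and 162 in replicate 2. Most of that sum lay on Ppp1r1b, at 134 and 121 TPM. In bulk tissue, fewer cells that use a gene and less RNA per cell cannot be told apart.

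Camk2a was the most abundant of the 9 genes (ENSMUSG00000024617.16, mm10 chromosome 18, 60925618 to 60988152, plus strand). It had 1091.5 TPM in replicate 1 and 1102 TPM in replicate 2, and ranked 2 among nuclear protein-coding genes by mean TPM. Camk2b (ENSMUSG00000057897.14, chromosome 11, 5969644 to 6066362, minus strand) had 269.8 and 293.3 TPM and ranked 160. Camk2g (ENSMUSG00000021820.18, chromosome 14, 20734875 to 20794088, minus strand) had 150.6 and 142.3 TPM and ranked 508. Camk2d (ENSMUSG00000053819.16, chromosome 3, 126596302 to 126846326, plus strand) had 63.4 and 81.6 TPM and ranked 1404. The mice did not overlap between any pair of CaMKII genes. Camk2d had the widest spread of the 9 members relative to its mean, at 72.5 ± 12.9 TPM (SD, n = 2).

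The inhibitor gene Camk2n1 (ENSMUSG00000046447.3, chromosome 4, 138454314 to 138460123, plus strand) had 571 TPM in replicate 1 and 546 TPM in replicate 2. It ranked 44 among nuclear protein-coding genes and lay above every kinase gene of the set except Camk2a. Of the upstream kinases, Camkk2 (ENSMUSG00000029471.13, chromosome 5, 122731170 to 122779409, minus strand) had 114.7 and 107.1 TPM, and Camkk1 (ENSMUSG00000020785.17, chromosome 11, 73019008 to 73042073, plus strand) had 46.2 and 46.6 TPM. Camk4 (ENSMUSG00000038128.7, chromosome 18, 32934931 to 33191228, plus strand) had 90.3 and 80.7 TPM. Camk1d (ENSMUSG00000039145.16, chromosome 2, 5293457 to 5714515, minus strand) had 56.2 and 54.8 TPM. These 4 kinases ranked between 781 for Camkk2 and 2404 for Camkk1, and each lay above 81.3% or more of detected protein-coding genes.

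By mean TPM the order was Camk2a, Camk2n1, Camk2b, Camk2g, Camkk2, Camk4, Camk2d, Camk1d and Camkk1. Both mice of each gene lay above both mice of the next one, except for Camk4 and Camk2d, whose values overlapped. Steps between neighbours were near equal at the top, with Camk2a 1.96-fold above Camk2n1, Camk2n1 1.98-fold above Camk2b and Camk2b 1.92-fold above Camk2g. Further down they were smaller, between 1.18-fold for Camk4 over Camk2d and 1.32-fold for Camk2g over Camkk2. The second deposited quantification, which assigned reads to transcripts without a genome alignment and is called read-based here, gave the same order, with Camk4 above Camk2d in both mice. Its TPM were higher throughout. The log2 of alignment-based over read-based TPM averaged between -0.89 for Camk4 and -0.36 for Camk1d, against medians of -0.56 and -0.59 over detected protein-coding genes in replicates 1 and 2. Since the tables were scaled separately, levels are compared within a table. Within the alignment-based tables, the order also rested on which models were summed. Over complete protein-coding models, with neither end marked as not found in the annotation, Camk2g had 77.7 and 70.0 TPM in replicates 1 and 2. It then lay below Camkk2, at 103.6 and 93.5 TPM, and Camk4, at 89.6 and 80.5 TPM. Camk2a was 1.48-fold above Camk2n1 over these models.

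**Figure D1:**
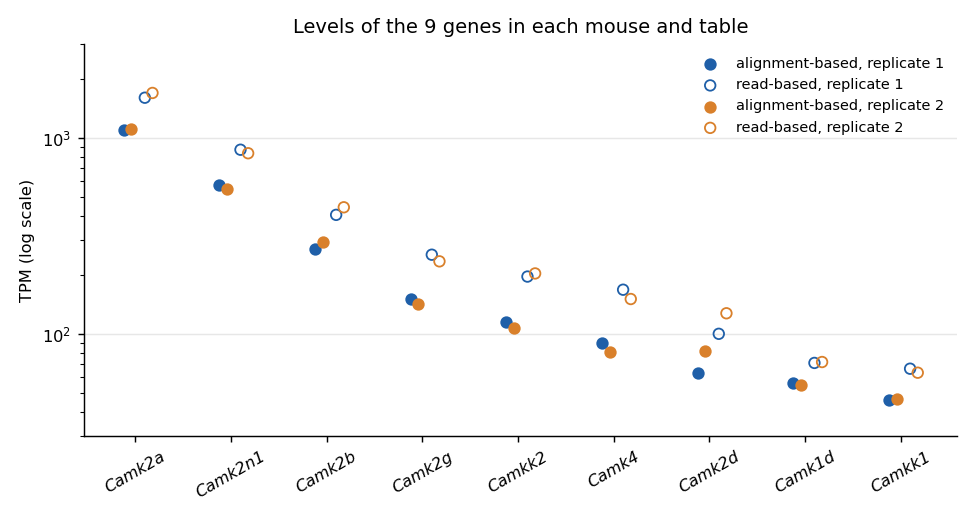
TPM of the 9 genes (log axis) in replicate 1 (blue) and replicate 2 (orange), from the alignment-based gene tables (filled circles) and the read-based transcript tables summed per gene (open circles). Genes run from Camk2a, at 1091.5 and 1102 TPM in the alignment-based tables, to Camkk1, at 46.2 and 46.6 TPM, and the mice of neighbouring genes overlap in the alignment-based tables only for Camk4 and Camk2d.

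Within the CaMKII genes, the alpha subunit gene held most of the RNA. Camk2a held 69.3% of the summed TPM in replicate 1 and 68.1% in replicate 2. Camk2b held 17.1% and 18.1%, Camk2g 9.56% and 8.78%, and Camk2d 4.02% and 5.04%. Restricted to complete protein-coding models, which are those with neither end marked as not found in the annotation, Camk2a stayed near this share at 68.5% ± 0.393, Camk2b held 21.4% ± 0.0756, Camk2g 6.13% ± 0.689 and Camk2d 3.95% ± 0.221 (SD, n = 2). Of Camk2g TPM, 30.1% and 32.6% lay on models with an incomplete end. By expected counts, which are not per length, Camk2g held 5.53% ± 0.485 and Camk2a 70.9% ± 0.410. Camk2a stayed the largest and Camk2d the smallest under each of these scales.

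**Figure D2:**
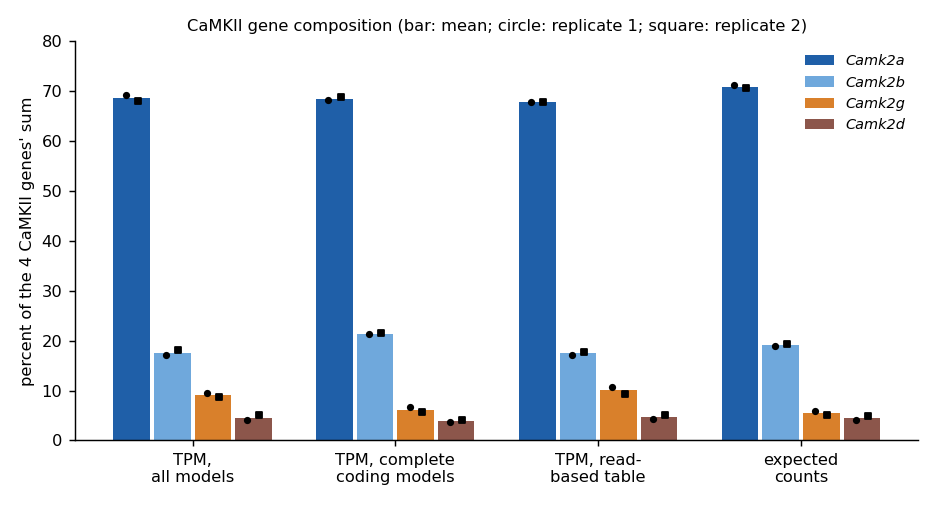
Percent of the 4 CaMKII genes' sum held by each gene, by TPM over all models, TPM over complete protein-coding models, TPM in the read-based tables and expected counts. Bars are means of 2 mice, circles replicate 1 and squares replicate 2. Camk2a holds 68.7% by TPM over all models and 70.9% by counts, and Camk2g moves between 5.53% and 10.1%.

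Set against its target kinases, Camk2n1 had less RNA per length than the CaMKII genes together. The log2 of Camk2n1 over the summed CaMKII TPM was -1.46 in replicate 1 and -1.57 in replicate 2, so that CaMKII RNA was 2.86-fold more abundant. Over complete models the ratio was -1.11 ± 0.10 (SD, n = 2), or 2.16-fold, where the incomplete Camk2a model described below is left out. Against Camk2a alone, Camk2n1 stood at -0.93 and -1.01 on the log2 scale. Between the upstream kinases, Camkk2 exceeded Camkk1 by 1.29 in replicate 1 and 1.18 in replicate 2 on the log2 scale, or 2.36-fold. The read-based tables gave 1.55 and 1.66. Camk4 exceeded Camk1d by 0.68 and 0.55, and by 1.23 and 1.06 in the read-based tables. These ratios had the same sign in both mice, both tables and under complete models.

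The other genes of the pathway were all detected. They were taken from lists drawn up with earlier results of these data known. Of 3 genes for proteins that bind calmodulin and limit its availability, Nrgn (neurogranin) was highest at 882 ± 88.8 TPM and Gap43 lowest at 139 ± 10.4 TPM (SD, n = 2). Of 5 other genes of the kinase family and its inhibitors, the pseudokinase gene Camkv was highest at 156 ± 4.53 TPM and the CaMKI gamma gene Camk1g lowest at 22.0 ± 1.75 TPM. Of 5 phosphatase genes, Ppp3ca (the calcineurin catalytic subunit, which calmodulin also activates) was highest at 388 ± 16.2 TPM, and Ppm1f (a phosphatase that acts on CaMKII) lowest at 21.5 ± 2.49 TPM. Of 8 genes for kinase targets, Prkaa1 (an AMPK subunit, which Camkk2 can phosphorylate) was lowest at 8.77 ± 0.417 TPM.

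The kinase genes differed in how many transcript models shared their RNA. Camk2n1 has a single model of 78 codons. Camk4 was nearly all on Camk4-201 (469 codons), with 99.2% of its TPM in replicate 1 and 99.8% in replicate 2, although the read-based tables put 73.3% and 74.2% there, 15.2% and 14.2% on the nonsense-mediated decay model Camk4-203 and 11.5% and 11.6% on the incomplete Camk4-202. Camk2b was carried by Camk2b-209 at 90.3% and 87.8%. Camkk1 was carried by Camkk1-201 (505 codons) at 88.8% and 92.0%, followed by the retained-intron model Camkk1-203 at 11.2% and 8.02%. Camkk2 was carried by Camkk2-201 (588 codons) at 78.2% and 72.4%, followed by Camkk2-211 (541 codons) at 8.80% and 11.3%. The read-based tables moved these shares, with Camkk1-203 at 24.2% and 20.2%, Camkk2-201 at 66.9% and 55.5%, and an incomplete nonsense-mediated decay model of Camkk2 at 7.43% and 15.4%. In Camk1d the leading Camk1d-201 (385 codons) held 62.7% and 64.2%, Camk1d-202 (377 codons) 13.8% and 19.4%, and the short processed transcript Camk1d-204 22.5% and 15.2%, which was 10.4% and 3.35% in the read-based tables.

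Short models drew large TPM shares from few reads in Camk2a, Camk1d, Camk2d and Camk2g. Camk2a-203 (478 codons) held 63.6% of Camk2a TPM in replicate 1 and 64.6% in replicate 2, but 88.4% and 87.1% of its counts. Camk2a-207, an incomplete model of 530 nucleotides, held 26.2% and 22.2% of TPM but 3.22% and 2.65% of counts, or 2422 and 1942 reads. Camk2a-201 (489 codons) held 8.39% and 10.7% of TPM. The read-based tables put 59.3% and 57.4% of TPM on Camk2a-203. They put 11.6% and 13.3% on Camk2a-202 (189 codons), against 1.18% and 1.32% in the alignment-based tables. In Camk1d, Camk1d-204 (653 nucleotides) held 2.72% and 1.78% of counts. In Camk2d, the retained-intron model Camk2d-217 (618 nucleotides) held 17.5% and 14.7% of TPM but 2.65% and 2.28% of counts. In Camk2g, the incomplete Camk2g-212 (673 nucleotides) held 18.5% and 22.1% of TPM but 5.08% and 6.16% of counts, and Camk2g-204 (722 nucleotides) 10.1% and 10.3% of TPM but 3.00% and 3.13% of counts.

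Camk2g and Camk2d had no dominant model. In Camk2g, Camk2g-201 (529 codons) held 19.4% of TPM in replicate 1 and 25.5% in replicate 2, and Camk2g-203 (495 codons) held 23.8% and 17.4%, so the leading model differed between the mice. The deposited intervals of these models overlapped in both mice. In replicate 1 they were 25.2 to 39.5 TPM for Camk2g-203 and 21.7 to 37.5 TPM for Camk2g-201. In replicate 2 they were 17.5 to 31.1 TPM for Camk2g-203 and 26.9 to 40.6 TPM for Camk2g-201. In Camk2d, Camk2d-206 (512 codons) led with 33.7% and 26.0%, followed beside Camk2d-217 by Camk2d-203 (512 codons) at 10.1% and 12.1% and Camk2d-228 (533 codons) at 7.43% and 13.2%. By mean share the leading model was the same in both kinds of table for 9 of 9 genes, though Camk2n1, with a single model, could not differ. In each mouse alone the leading model was the same for 8, with Camk2g the exception. The same count over other genes is not given here.

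**Figure D3:**
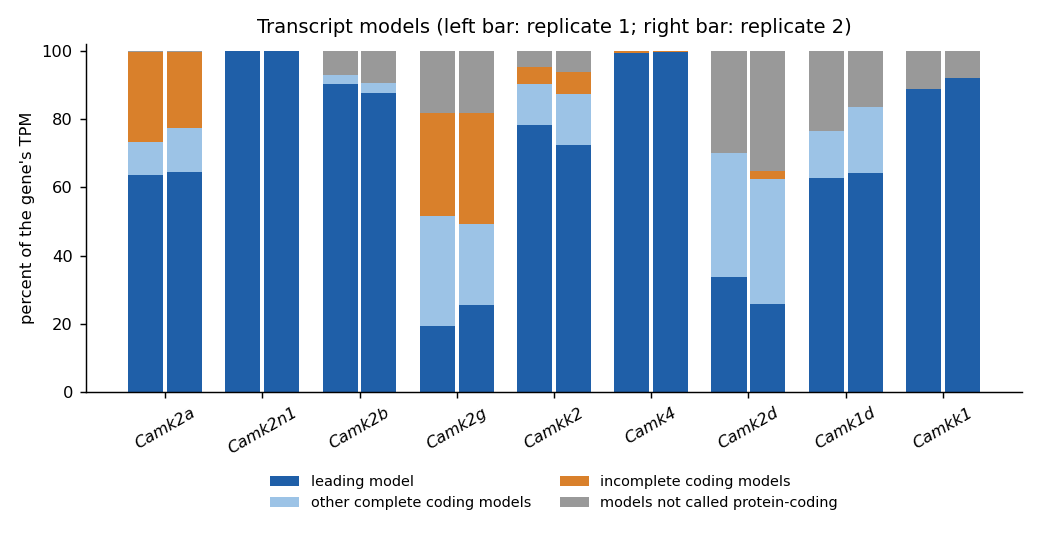
Percent of each gene's TPM on its leading model (dark blue), other complete coding models (light blue), incomplete coding models (orange) and models the annotation does not call protein-coding (grey). Left bars are replicate 1 and right bars replicate 2. The leading model holds 100% of Camk2n1 and 90.3% and 87.8% of Camk2b, but 33.7% and 26.0% of Camk2d and 19.4% and 25.5% of Camk2g.

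Internal coding exons that some models hold and others skip were examined next. Inclusion is given as the percent of TPM on models that hold an exon, among models that hold it or span it with an intron. Of 18 alternative coding exons in complete models of the 9 genes, 10 had a mean inclusion between 5% and 95%. Camk2d had 5 of its 6 alternative exons in this range, Camk2g 3 of 3, Camk2a 1 of 1, Camkk2 1 of 1 and Camk2b 0 of 7. These exons were picked out after their values were seen, and each inclusion was inferred from deposited transcript levels, not from reads across junctions.

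Camk2d holds a pair of 73-nucleotide exons that take turns: 9 of 9 complete models contain exactly one of them, as their exon 6. The sequences below, from the GENCODE M21 transcripts, show how alike these alternatives are. They match at 50 of 73 positions (68.5%), and capitals mark the positions that differ.
Camk2d upstream exon, chr3:126770785-126770857, plus strand: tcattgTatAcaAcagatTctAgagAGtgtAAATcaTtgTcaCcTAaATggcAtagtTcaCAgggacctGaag
Camk2d downstream exon, chr3:126771774-126771846, plus strand: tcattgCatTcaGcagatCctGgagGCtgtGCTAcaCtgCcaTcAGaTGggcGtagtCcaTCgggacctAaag

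The upstream exon was the main one, with 81.4% inclusion in replicate 1 and 80.3% in replicate 2, and the downstream exon had 18.6% and 19.7%. The read-based tables gave 80.8% and 77.7% for the upstream exon, and complete models alone gave 80.6% and 78.5%. The same ordering of the pair thus held in both mice and both tables.

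A second comparison concerns a 33-nucleotide exon that Camk2a, Camk2d and Camk2g share as homologues. It lies in the variable linker of the protein and is known to add a nuclear localization signal, as in the alphaB, deltaB and gammaA forms of the kinase. The exons of Camk2d and Camk2g are shown because their inclusion lay farthest apart while their sequences match at 26 of 33 positions (78.8%). Capitals mark the positions that differ.
Camk2d exon 14 of Camk2d-205, chr3:126802937-126802969, plus strand: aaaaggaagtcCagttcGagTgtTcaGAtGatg
Camk2g exon 14 of Camk2g-201, chr14:20747819-20747851, minus strand: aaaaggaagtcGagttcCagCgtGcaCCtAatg

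Inclusion of this exon ranked in the same order in both mice. In Camk2g it was 47.4% in replicate 1 and 58.1% in replicate 2, in Camk2a 11.8% and 14.5%, and in Camk2d 1.05% and 0.807%. The Camk2a exon matches that of Camk2d and that of Camk2g at 28 of 33 positions each. The read-based tables gave 60.2% and 64.7% for Camk2g, 9.04% and 10.6% for Camk2a and 1.16% and 2.90% for Camk2d. Complete models alone gave 40.0% and 53.9% for Camk2g, 11.8% and 14.5% for Camk2a and 1.37% and 1.10% for Camk2d. The genes did not overlap under any of these. By level, models that hold the exon summed to 94.4 and 124 TPM in Camk2a and to 59.0 and 69.1 TPM in Camk2g. In the read-based tables these levels overlapped, at 113 and 141 TPM for Camk2a and 121 and 127 TPM for Camk2g. Over complete models in the alignment-based tables, Camk2g had 31.1 and 37.7 TPM and Camk2a kept 94.4 and 124 TPM.

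Further along the linker, a Camk2b exon of 45 nucleotides and a Camk2d exon of 42 nucleotides are also alike, with 33 identical bases over 45 aligned positions (73.3%). They are shown because one was nearly constant and the other was not. Capitals mark bases that differ from the other exon or face a gap in it.
Camk2b exon 16 of Camk2b-209, chr11:5981070-5981114, minus strand: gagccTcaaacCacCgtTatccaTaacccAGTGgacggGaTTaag
Camk2d exon 15 of Camk2d-206, chr3:126808208-126808249, plus strand: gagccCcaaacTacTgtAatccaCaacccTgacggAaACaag

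The Camk2b exon had 97.5% inclusion in replicate 1 and 97.1% in replicate 2, and the Camk2d exon 62.6% and 61.5%. Over complete models the Camk2d value was 81.8% and 86.2%, still below the Camk2b value of 97.5% and 97.0%. The Camk2d figure over all models includes Camk2d-217, the short retained-intron model, which skips this exon. Of the remaining Camk2d exons, one of 60 nucleotides had 78.7% and 79.1% inclusion, and one of 89 nucleotides, whose length changes the reading frame, 32.6% and 35.0%. In Camk2g, an exon of 69 nucleotides had 36.6% and 40.5%, against 53.9% and 64.6% over complete models. One of 114 nucleotides had 13.8% and 13.9%, against 2.32% and 2.14% over complete models, so its level rested on incomplete models. In Camkk2, a 43-nucleotide exon that separates the models of 588 and 541 codons had 89.9% and 86.6%. In Camk2b, the 75-nucleotide exon had 97.5% and 97.0%, and the 4 rare exons at most 1.00% and 0.802%, or up to 2.12% and 3.15% in the read-based tables.

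**Figure D4:**
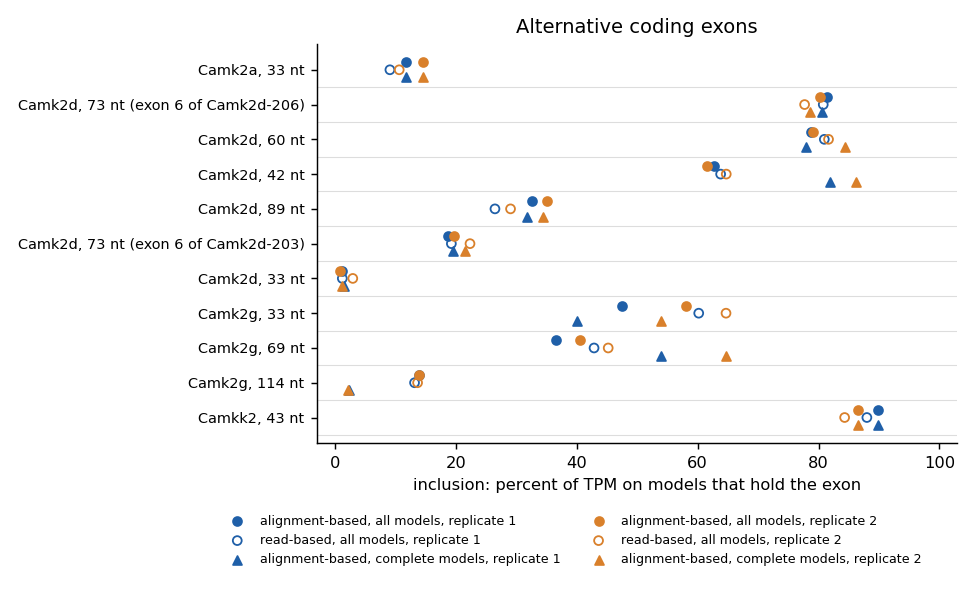
Inclusion of alternative coding exons, as percent of TPM on models that hold the exon, in replicate 1 (blue) and replicate 2 (orange). Filled circles are alignment-based tables over all models, open circles read-based tables over all models and triangles alignment-based tables over complete models. Symbols of the Camk2d 73-nucleotide pair sit at 81.4% and 80.3% for the upstream exon and at 18.6% and 19.7% for the downstream exon in the filled circles, and the 33-nucleotide exon lies highest in Camk2g and lowest in Camk2d.

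Models not called protein-coding held 29.8% of Camk2d TPM in replicate 1 and 35.3% in replicate 2, the highest share of the 9 genes. Camk1d stood at 23.6% and 16.4%, and Camk2g at 18.4% and 18.2%. The read-based tables also put Camk2d highest, at 33.2% and 35.3%, but ordered the other genes differently. There Camk1d stood at 10.4% and 3.35%, while Camkk1 stood at 24.2% and 20.2% against 11.2% and 8.03% in the alignment-based tables. Camkk2 stood at 10.3% and 19.1% against 4.77% and 6.31%. At the other end Camk2a had 0.428% and 0.354%, and Camk4 and Camk2n1 were listed at 0, although the read-based tables put 15.2% and 14.2% of Camk4 on such models. The median over 11678 detected protein-coding genes with several models was 12.1% and 15.1%. Total RNA holds unspliced RNA, which can be assigned to such models. No exon of a member overlapped an exon of another gene on its own strand, while an exon of Camk4 overlapped the antisense gene 2310026I22Rik, which had 5 and 0 counts; whether the counting used strand is not stated.

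Between the mice, the 9 genes differed about as much as other genes did. The log2 ratio of replicate 1 over replicate 2, from counts scaled by TMM, exceeded 0.5 in size for 0 of 9 members, where 2.24% of the 11715 protein-coding genes averaging 100 counts or more did so. With so small a share past 0.5, 0 of 9 does not set the members apart. The median ratio was 0.06 for the members and 0.03 for those genes, and the median size 0.13 and 0.10. Camk2a was nearest to even at 0.00, with a 95% counting interval of -0.01 to 0.02. Camk4 was highest in replicate 1, at 0.22 (0.16 to 0.28), followed by Camkk2 at 0.20 (0.16 to 0.24), Camk2g at 0.17 (0.12 to 0.22) and Camk2n1 at 0.13 (0.11 to 0.15). Camk2d lay the other way at -0.27 (-0.33 to -0.21), a size that 87.9% of the background genes did not reach. Camk2b was at -0.04 (-0.07 to -0.01), Camk1d at 0.06 (0.00 to 0.12) and Camkk1 at 0.06 (-0.02 to 0.13). Intervals left out 0 for 7 of 9 members and 37.7% of background genes. They cover counting error only, so they compare these libraries and say nothing of the spread among mice. They also narrow as counts rise, and every member had 2868 counts or more, where background genes needed an average of 100. These shares are therefore not a comparison at equal counts. Directions are relative to the other genes: scaled to spike-in totals instead, the median of the background genes was -0.37 and all 9 members lay below 0, and scaled to library totals Camk2a, Camk1d and Camkk1 lay below 0 as well as Camk2b and Camk2d.

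**Figure D5:**
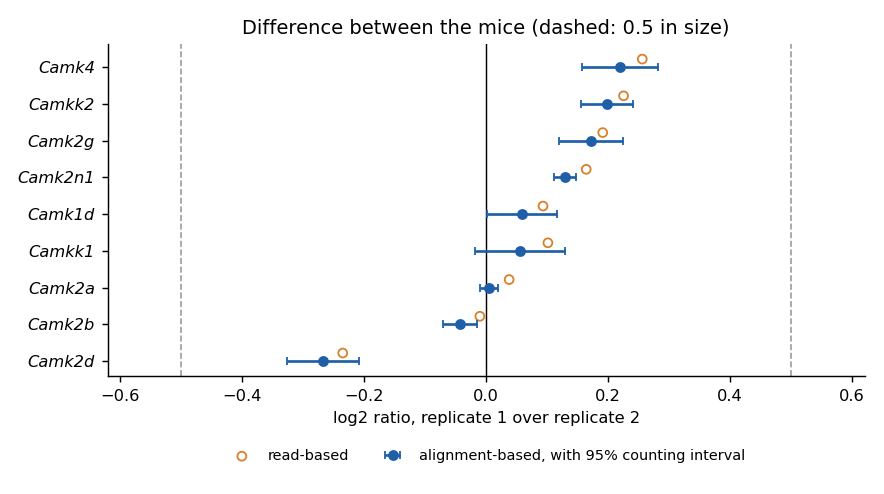
Log2 ratio of replicate 1 over replicate 2 for each gene. Filled circles are alignment-based expected counts scaled by TMM, with 95% exact counting intervals, and open circles are the read-based tables. Dashed lines mark 0.5 in size, which none of the 9 genes reached, and the genes run from Camk4 at 0.22 to Camk2d at -0.27.

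Relative to their level, the noncoding models of Camk2d were lower in replicate 1 by more than its complete models. Its models not called protein-coding had 18.9 TPM in replicate 1 and 28.8 TPM in replicate 2, a log2(TPM + 1) difference of -0.58, whereas its complete models had 44.5 and 50.9 TPM, a difference of -0.19. All models together gave -0.36 on this scale, which is not the TMM-scaled one used above. By counts, the noncoding models had 514 and 871 and the complete models 3765 and 4136, so complete models also held a large part of the gap in reads. In addition, 6 provisional gene models (biotype TEC) within Camk2d introns on the same strand had counts, and all 6 had more in replicate 2. They summed to 162 counts in replicate 1 against 238 in replicate 2, or -0.59 (-0.89 to -0.30) as a TMM-scaled log2 ratio. The same count within introns of other genes is not given here, so this is not shown to be particular to Camk2d. Single models differed within both classes. Among complete models, Camk2d-206 stood at 21.3 TPM in replicate 1 and 21.2 TPM in replicate 2. Camk2d-228 had 4.71 and 10.78 TPM, Camk2d-203 had 6.39 and 9.87 TPM, and Camk2d-216 was also lower in replicate 1. Camk2d-226 went the other way, at 6.95 and 5.3 TPM, as did Camk2d-221, Camk2d-202 and Camk2d-205. Deposited intervals of the mice overlapped for each of these complete models except Camk2d-228 and Camk2d-216, so the other shifts are not resolved. The most abundant noncoding model, Camk2d-217, had 11.09 and 11.99 TPM. Across detected genes with several models, the share on models not called protein-coding was higher in replicate 2 for 56.1%. Among the members with several models, it was higher in replicate 2 for 3 of 8. Whether unspliced RNA had a part in the Camk2d difference was not tested.

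Some cell type and region markers also differed between the mice, where the median ratio of the background genes was 0.03. By TMM-scaled counts, all 4 excitatory neuron markers were higher in replicate 1, with a median log2 ratio of 0.18. Their summed TPM was 717 in replicate 1 and 673 in replicate 2, though Tbr1 was slightly lower in replicate 1 by TPM, at 52.6 and 53.2. All 4 oligodendrocyte markers were higher in replicate 1 too, with a median of 0.40 and summed TPM of 1150 and 940. The 4 striatal markers were all higher in replicate 1 by scaled counts, with a median of 0.30, and Drd2, a dopamine receptor gene, passed 0.5 at 0.65. By alignment-based TPM, Drd1 was lower in replicate 1, at 22.0 and 22.9. Both oligodendrocyte precursor markers were lower in replicate 1, with a median of -0.14 and summed TPM of 22.3 and 27.4. The 4 inhibitory neuron markers had a median of -0.01, and their sums were 418 and 453 TPM. Astrocyte, microglia and endothelial markers had medians near even, at 0.05, 0.07 and -0.004. Single markers of these lists lay on both sides, between -0.27 for Cldn5 and 0.18 for Slc1a2. The 3 choroid plexus markers, with summed TPM of 10.5 and 7.30, had a median of 0.41, and Ttr among them stood at 0.74. That median was the value of Folr1, which rested on 7 and 5 counts, and Kl lay the other way at -0.08. None of the 24 pathway genes passed 0.5 in size. No marker of these cell types was at 0 in either mouse. The part of such shifts in the ratios of Camk4, Camkk2, Camk2g and Camk2n1 was not tested.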

How the data were processed

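The deposited files hold, for each of 2 libraries, a gene and a transcript table from reads aligned to mm10 with GENCODE M21, and a transcript table quantified from the reads directly, per the deposited listing. Names of the aligner and quantifiers were not given in the sources used here. Per the file headers, the authors' values are expected counts (estimated counts, which need not be whole), TPM scaled to one fixed sum within each table, and for the alignment-based models the percent of a gene's TPM. The level of the deposited TPM intervals is not stated, and they are centred on a posterior mean that can differ from the TPM itself. Depth was 29915463 and 27988085 expected counts. Reads of both parental genomes are summed in 1 value per gene, and nothing in the labels says that the mice were littermates or were handled apart beyond their replicate numbers.

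The 9 members and the gene lists were chosen with earlier results of these data known. The named-gene rule was to give every member, the highest and lowest gene of each pathway list, and each member's models at a mean share of at least 10%; some of the pathway genes are not reported here. With 1 group no model was tested across samples. For mouse ratios, counts were rounded, scaled by TMM (edgeR 4.0.16) with a prior count of 0.5, and given exact binomial 95% intervals, checked on simulated data. DESeq2 1.42.0 size factors, library totals and spike-in totals were alternatives. Level medians used a pseudocount of 1. Exons and their sequences came from the GENCODE M21 annotation and transcripts (mm10), and exons were aligned with Biopython 1.88.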

Additional observations from a re-analysis of the deposited data

How the results depend on the processing

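All 9 members stayed detected at TPM thresholds of 0.1 and 5, in the read-based tables and in each mouse alone. The median member level of 6.81 became 7.65 in the read-based tables and 7.94 when TPM was rescaled over nuclear protein-coding genes alone. The Camk2a share of CaMKII became 67.8% in the read-based tables, 70.9% by expected counts and 71.9% over protein-coding transcripts, against 68.7%. The log2 ratio of Camk2n1 to CaMKII was -1.11 over complete models, against -1.51, and that of Camkk2 to Camkk1 was 1.61 in the read-based tables, against 1.24. Scaling by spike-in totals moved the median ratio of all background genes to -0.37 and put 22.4% of them past 0.5 in size, among them 1 member, Camk2d at -0.67. Library totals put Camk2a, at -0.06, below 0. DESeq2 size factors, library totals, other count minimums, no filter, a threshold of 1 and the read-based tables left 0 of 9 members past it. Without a count filter 14.7% of 22015 genes passed 0.5, against 2.24%. Among the remaining results, all levels or shares, 69 of 93 comparisons with an alternative moved by more than 1 SD between the mice, of which 40 came from the read-based tables. Leaving out a mouse is not counted here, since with 2 mice it cannot move a mean that far.

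Complete models and the exon inclusion alternatives were chosen after seeing the data. No paired analysis was possible because there is only 1 group, with nothing to pair. With 2 mice the SDs are rough, short or incomplete models rest on few reads, and p-values were not computed.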
